A study of Mus musculus with 8 samples.

Results

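The measure described here is the difference between the effects of Ino80 knockout in primed and in naive mouse embryonic stem cells: for each gene, the log2 change from wild type to knockout in the primed state less the same change in the naive state. It was taken over all 8 libraries for the genes with at least 1 RPKM (reads scaled by transcript length and library total) in at least 2 libraries of each state, so that both changes could be measured. Of 24505 genes listed, 11047 met this rule, 1062 met it in the naive state only, 1178 in the primed state only and 11218 in neither. Among the 11047 genes, 54 had opposite effects, 409 had an effect in the primed state only, 17 in the naive state only, and 467 had an effect shared by both states, by the rules given below.

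INO80 is a chromatin remodelling complex whose ATPase, encoded by Ino80, moves nucleosomes and acts on those that carry the histone variant H2A.Z. Naive stem cells resemble the epiblast of the embryo before implantation, and primed cells the epiblast after it, when FGF and Activin signals hold pluripotency in cells that can soon form the germ layers. All 8 libraries came from a line with a conditional Ino80 allele, labelled INO80 CKO. The naive groups, 2 libraries labelled knockout and 2 labelled wild type, were grown on gelatin with the MEK inhibitor PD0325901, the GSK3 inhibitor CHIR99021 and LIF. The primed groups, again 2 and 2, were grown on fibronectin with FGF-2, Activin A and the tankyrase inhibitor XAV-939. Deletion was induced by 100 nM 4-OHT over 2 days, and cells were kept for 2 days more. The labels do not say whether wild-type cells also received 4-OHT, nor whether both libraries of a group were grown apart. A p-value here therefore reflects the spread between these libraries alone, and that spread may be technical.

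Ino80 itself stood at 16.1 and 16.4 normalized RPKM in the naive wild-type libraries and at 15.6 and 14.9 in those labelled knockout. In the primed state it stood at 14.0 and 13.8 in wild type and at 11.4 and 11.5 in knockout. These groups did not overlap in either state, but the naive difference of -0.09 ± 0.04 (log2, SE) did not pass (limma adjusted p = 0.0612), while the primed change of -0.26 ± 0.04 did (limma adjusted p = 0.000145), and the effects differed by -0.17 (limma adjusted p = 0.0136). As deposited the naive groups overlapped, at 17 and 14.5 RPKM in wild type and 15.9 and 15.1 in knockout (-0.02, limma adjusted p = 0.967), while the primed effect was -0.93 and the difference -0.91. The value of a gene sums all of its exons, deleted or not, so Ino80 is a weak check of the labels in both states. "Knockout" is used here as the labels use it. Of the 15 subunit genes of the complex tested, Ino80 included, 8 rose and 3 fell in the primed state (41.9% and 36.7% of all genes tested). In the naive state 7 rose and 3 fell (33.9% and 29.0% of all). As deposited 2 rose and 8 fell in the primed state. Ino80c was higher in the primed knockout, at 20.6 and 20.4 against 8.12 and 8.59 normalized RPKM, and changed by 0.26 in the naive state. Ino80b was among the shared rises described below.

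The states matched their labels. The summed deposited RPKM of 8 naive-state markers such as Klf4, Esrrb and Zfp42 lay between 812 and 921 in naive and between 3.4 and 11.2 in primed libraries, and the sum of the primed-state markers found, such as Dnmt3b and Otx2, lay between 37.3 and 54.5 in naive and between 265 and 350 in primed libraries. Fibroblast markers, of cells a culture could also hold, were low in naive libraries and higher in primed ones. Of these, 8 of 8 were listed, and 0 reached 1 RPKM in at least 2 libraries of each state. Their sum lay between 1.2 and 4.46 in naive libraries, 39.1 and 53.5 in primed wild type and 16.1 and 16.9 in primed knockout, led by Col3a1 with at most 26.5. In primed wild type 2 of the 8 stayed under 1 RPKM in both libraries. Deposited RPKM added up to 341480 to 507598 per library, a sum that does not measure depth, and the depth of the libraries is unknown. The median of all genes tested moved by 0.02 in the naive and 0.03 in the primed state after quantile normalization, but by 0.07 and by -0.56 as deposited. Every change below is therefore a change against the typical gene of the same state, and no absolute scale could be set. Whether the deposited values of both states were scaled alike is not stated. Levels set side by side across states below are thus normalized levels only, and may not be comparable as amounts of RNA. In bulk RNA, fewer cells of a type and less RNA per cell cannot be told apart.

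Both effects were mostly small. In the naive state 6949 genes passed the test (62.9% of those tested), 3749 higher and 3200 lower in the knockout, and in the primed state 8691 passed (78.7%), 4634 higher and 4057 lower. The naive count depends on the scaling, at 1425 as deposited and 4089 with median centring. So does the spread between libraries on which every SE and p-value rests. Its median SD per gene (log2) was 0.0445 after quantile normalization, 0.0932 with median centring and 0.168 as deposited. Changes of 2-fold or more were called for 160 genes in the naive state (1.45%, 0.634% higher and 0.815% lower), for 881 in the primed state (7.98%, 3.4% higher and 4.57% lower) and for 685 differences (6.2%, 2.66% higher and 3.54% lower), and the median size of an effect was 0.19 and 0.32 on the log2 scale. The difference of the effects passed for 7318 genes (66.2%). For 3892 of them the primed effect was the more positive and for 3426 the more negative, a split of 53.2% higher. As deposited, where the primed median is shifted, that split was 208 higher and 5622 lower, or 3.57% higher, and with median centring it was 3359 and 2067, or 61.9% higher. Counts in each direction thus follow the scaling, also those of the classes below, for which the counts as deposited are given beside the main ones.

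Across the 11047 genes, which are not independent replicates, the naive and primed effects correlated with a Pearson r of 0.444 and a Spearman rho of 0.426. The effects of the 2 states have no library in common. Of 5753 genes called in both states, 4330 (75.3%) went in the same direction and 1423 in opposite directions. Where both effects reached 2-fold, 70 of 80 genes went the same way. Of 2938 genes called in the primed state but not in the naive, the difference itself passed for 2414, and of 1196 called in the naive state but not in the primed it passed for 807.

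**Figure D1:**
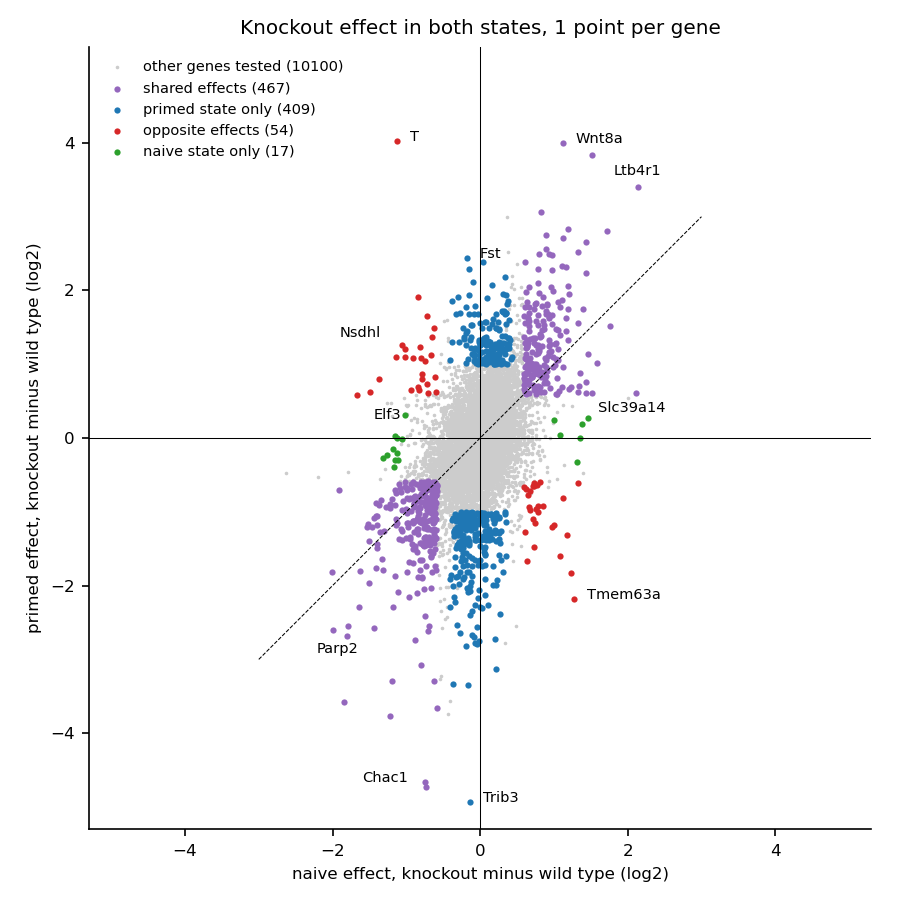
Naive effect (x axis) and primed effect (y axis) of each of the 11047 genes tested, both as log2 knockout minus wild type after quantile normalization, with 1 point per gene and the 4 classes in colour. The dashed line marks equal effects; points spread further along the y axis than along the x axis, T lies at -1.12 and 4.03, and Trib3 lies lowest at -4.94.

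After quantile normalization the largest difference between the effects, in either direction, was that of T, which encodes Brachyury, the T-box factor of the primitive streak and early mesoderm. As deposited that of Trib3, described below, was larger, at -5.29 against 4.31 for T. In naive wild-type libraries T stood at 1.96 and 1.53 normalized RPKM and in naive knockout at 0.28 and 0.232. In primed wild type it stood at 1.62 and 1.64, and in primed knockout at 42.6 and 41.4. Both wild-type groups were thus at a like low level, and the knockout libraries lay below them in the naive state and far above them in the primed state. The naive effect was -1.12 ± 0.08, the primed effect 4.03 ± 0.08 and the difference 5.15 ± 0.11 (limma adjusted p = 1.58e-08). The naive change rests on low values, and as deposited it was -0.88 (limma adjusted p = 0.022). T passed the naive filter through wild type alone, and without either of those libraries it fails it; with the gene kept, the naive effect was -1.01 or -1.27 and the difference 5.07 or 5.26.

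Genes count as opposite when both effects passed with opposite signs, each at least 1.5-fold, and the difference passed. Of the 11047 genes 54 did (0.489%), 26 of them higher in the primed knockout and lower in the naive (0.235%) and 28 the reverse (0.253%). The signs of both effects and of the difference held as deposited, with median centring and with loess normalization for 20 of the 26 and for all 28. The whole rule is less stable: as deposited 7 genes met it in the higher and 69 in the lower direction, among them 7 of the 26 and 22 of the 28. Ggt1 lay just inside the limit of 0.585, with a naive effect of -1.67 and a primed effect of 0.59, and Dusp9 just outside it, with -0.64 and 0.58.

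Of the 26 genes, 5 encode enzymes of sterol synthesis, from a list with 25 of the 11047 genes tested. Nsdhl, a sterol dehydrogenase that helps to remove the C4 methyl groups, stood at 33.5 and 34.2 in naive wild type and at 15.3 and 16.0 in naive knockout. The primed values were 15.8 and 14.9 in wild type and 37.2 and 38.7 in knockout. No groups overlapped within a state, and primed knockout reached the level of naive wild type. The effects were -1.06 ± 0.04 and 1.25 ± 0.04, a difference of 2.32 ± 0.06 (limma adjusted p = 2.84e-08). Mvd, the decarboxylase that makes isopentenyl diphosphate, fell from 69.1 and 64.7 to 30.3 and 29.3 in the naive state and rose from 23.3 and 24.0 to 52.1 and 51.4 in the primed state, a difference of 2.23 ± 0.05 (limma adjusted p = 2.7e-08). Msmo1, the C4 methyl oxidase, had effects of -1.01 and 1.09, and Cyp51, the C14 demethylase, had -0.75 and 1.05.

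Most, but not all, of the pathway's list moved in these directions. Cells make cholesterol from acetyl-CoA through mevalonate and squalene, and the factor SREBP2 raises most genes of the route when sterols are scarce. Of 25 genes tested (27 in the list), 24 fell and 0 rose in the naive knockout (background 29.0% lower and 33.9% higher), with a median of -0.53. In the primed knockout 21 rose and 2 fell (background 41.9% higher and 36.7% lower), with a median of 0.80. The difference was called higher for 24 and lower for 0 (background 35.2% and 31.0%), with a median of 1.14 beside 0.03 over all genes. For 21 genes both effects passed with opposite signs. As deposited the counts were 15 lower and 0 higher in the naive state, 14 higher and 5 lower in the primed state and 19 higher and 1 lower for the difference, with medians of -0.48, 0.26 and 0.74. The primed sign of Tm7sf2, Lss, Pmvk, Idi1, Dhcr7 and Srebf2 was not the same under every scaling.

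Within the route, early and late steps had the same signs. Acat2, which joins acetyl-CoA units, went from 61.8 and 58.7 to 42.1 and 39.9 in the naive state and from 39.0 and 40.5 to 81.6 and 81.7 in the primed state. Fdft1, squalene synthase, had effects of -0.48 and 0.96, and Sqle, the epoxidase after it, -0.20 and 0.61. Hsd17b7, another late sterol enzyme, changed mainly in the primed state, with -0.27 and 1.70. The regulators moved less: Insig1, which holds SREBP in the endoplasmic reticulum, had -0.67 in the naive state and no primed change that passed (limma adjusted p = 0.945), and Srebf2, which encodes SREBP2, had -0.31 and -0.12. Ggps1, a branch point enzyme towards protein prenylation, was the member whose difference did not pass, at -0.03.

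**Figure D2:**
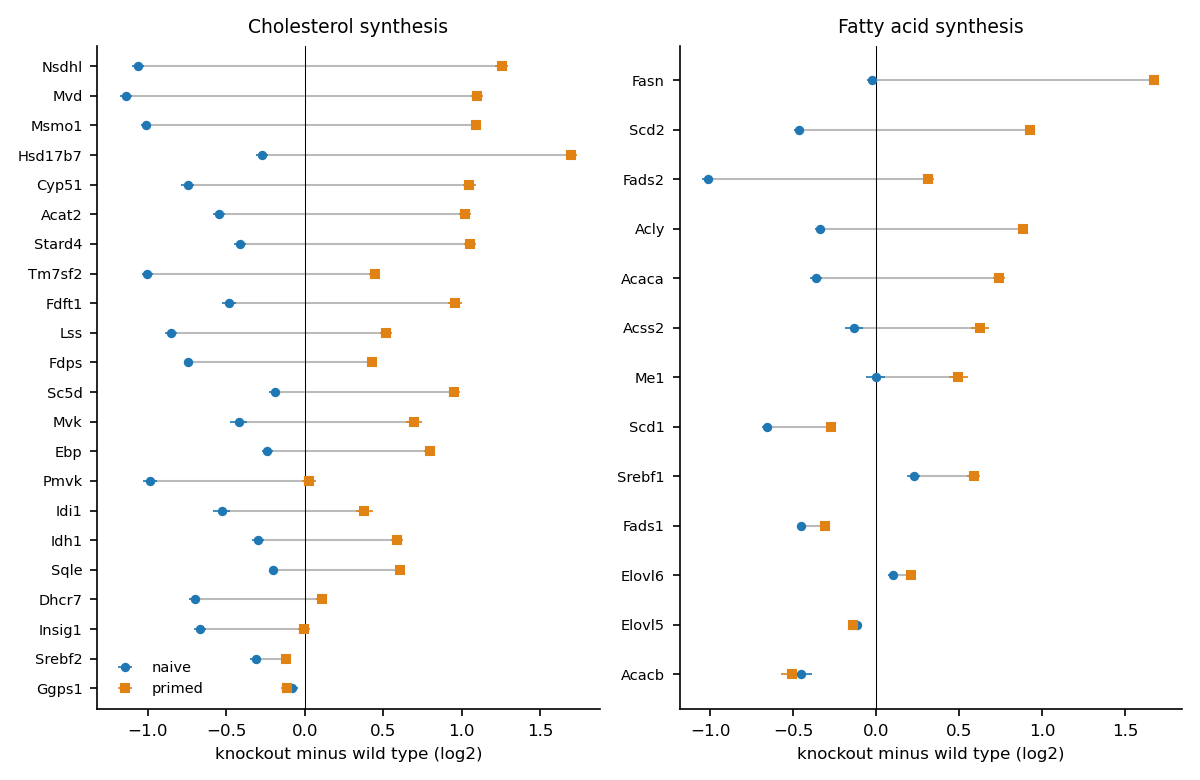
Naive (circles) and primed (squares) effect of the genes shown of the cholesterol (left) and all genes tested of the fatty acid (right) lists, as log2 knockout minus wild type with SE bars, ordered by the difference. In the left panel the naive effects lie at or left of 0 and the primed effects mostly right of it, with Nsdhl at -1.06 and 1.25 and Ggps1 at the foot with both below 0.

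The promoters of these genes were searched for the letters of sites known for factors that act there. The windows are the 250 bases before the start of each gene in RefSeq on GRCm38.p6, a later build than the mm9 of the files, and 8495 of the 11047 genes had one. The box CCAAT, read on either strand and bound by NF-Y, a partner of SREBP2, was in 17 of 18 cholesterol promoters (94.4%) against 3516 of 8495 promoters in all (41.4%). In the class of opposite genes higher in the primed knockout it was in 9 of 19 (47.4%). The sterol element core TCACNCCAC was in 0 of the 18 and in 1.31% of all promoters. So rare a string can be missing from 18 promoters in any case, so this count does not show that sterol elements are absent. CCAAT was as frequent in promoters of endoplasmic reticulum chaperones, 18 of 19 (94.7%), a list whose median difference was -0.33. A match is a description of these letters and not a measured site. Shown are 4 of the promoters whose genes had opposite effects, in lower case from 5′ to 3′ on the gene's strand, with CCAAT or its complement ATTGG in capitals.
Nsdhl, chrX:72918271-72918520, plus strand: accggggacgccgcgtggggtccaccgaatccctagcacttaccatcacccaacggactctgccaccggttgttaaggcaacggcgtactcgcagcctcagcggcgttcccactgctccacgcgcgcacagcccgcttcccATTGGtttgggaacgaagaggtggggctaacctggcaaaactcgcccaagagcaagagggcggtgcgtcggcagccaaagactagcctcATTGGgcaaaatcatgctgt
Mvd, chr8:122443423-122443672, minus strand: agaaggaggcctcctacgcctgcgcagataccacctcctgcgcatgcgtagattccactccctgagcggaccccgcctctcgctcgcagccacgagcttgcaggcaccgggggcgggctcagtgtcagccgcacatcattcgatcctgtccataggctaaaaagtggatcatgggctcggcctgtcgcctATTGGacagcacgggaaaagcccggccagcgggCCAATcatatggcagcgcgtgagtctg
Cyp51, chr5:4104698-4104947, minus strand: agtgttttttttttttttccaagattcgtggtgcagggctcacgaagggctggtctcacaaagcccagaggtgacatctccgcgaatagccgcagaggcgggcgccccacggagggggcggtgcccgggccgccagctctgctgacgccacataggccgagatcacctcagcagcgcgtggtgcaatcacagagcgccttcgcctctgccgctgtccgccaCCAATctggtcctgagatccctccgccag
Msmo1, chr8:64733579-64733828, minus strand: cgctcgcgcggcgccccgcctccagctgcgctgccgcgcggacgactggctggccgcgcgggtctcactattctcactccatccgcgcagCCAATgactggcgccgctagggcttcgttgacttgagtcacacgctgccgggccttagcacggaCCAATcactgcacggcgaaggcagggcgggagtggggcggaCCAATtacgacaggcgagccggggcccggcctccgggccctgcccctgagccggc

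Genes of fatty acid synthesis followed in part. Of 13 tested, 8 fell and 2 rose in the naive state (background 29.0% and 33.9%). In the primed state 9 rose and 4 fell (background 41.9% and 36.7%). The difference was higher for 11 and lower for 0 (background 35.2% and 31.0%), and the medians were -0.34, 0.50 and 0.50. As deposited 4 rose and 5 fell in the primed state and the difference was higher for 4 and lower for 2. Fasn, fatty acid synthase, stood at 115.3 and 112.7 in naive wild type and at 114.2 and 110.1 in naive knockout, and at 81.4 and 84.2 against 269.8 and 263.5 in the primed state. It changed in the primed state only, by 1.68 ± 0.03, and the interval of its naive effect ran from -0.09 to 0.05. Scd2, a desaturase, had effects of -0.47 and 0.93, and Acly, which makes cytosolic acetyl-CoA, -0.34 and 0.88. Scd1 fell in both states, by 0.66 in the naive and by 0.27 in the primed state on the log2 scale.

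The other opposite genes that were higher in the primed knockout included Galnt12, which starts O-linked glycans. It stood at 9.87 and 9.35 in naive wild type, 5.69 and 5.2 in naive knockout, 1.63 and 1.47 in primed wild type and 7.19 and 6.85 in primed knockout, a difference of 2.37 ± 0.08 (limma adjusted p = 1.71e-07). As deposited its naive effect of -0.67 did not pass (limma adjusted p = 0.0873), so it did not meet the rule there. Named after their values were seen, Gss and Ggt1 make and break down glutathione, and had effects of -0.80 and 1.08 and of -1.67 and 0.59. Tmsb4x, an actin-binding thymosin, was the most abundant of the class, falling from 169.7 and 171.2 to 101.1 and 94.8 in the naive state and rising from 246.9 and 240.2 to 442.5 and 449.5 in the primed state. Smarca1, an ISWI remodelling ATPase, had effects of -0.79 and 0.80. Over the 26 genes the primed effect ran from 0.59 to 4.03 and the naive effect from -1.67 to -0.60.

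Among the 28 genes that rose in the naive and fell in the primed knockout, Tmem63a, an osmosensitive cation channel, had the largest difference. Its naive values were 2.38 and 2.48 in wild type and 7.63 and 6.97 in knockout, and its primed values 49.6 and 52.4 and then 10.3 and 10.6. The 4 knockout libraries lay between the 2 wild-type groups. The effects were 1.27 ± 0.05 and -2.18 ± 0.05, a difference of -3.46 ± 0.07 (limma adjusted p = 1.58e-08). H19, an imprinted noncoding RNA, showed the same order, with 1.28 and 1.48 in naive wild type, 4.53 and 4.6 in naive knockout, 63.8 and 64.0 in primed wild type and 17.3 and 17.3 in primed knockout. Its difference was -3.05 ± 0.06 (limma adjusted p = 1.58e-08). With 1.73 and 0.976 deposited RPKM in naive wild type, H19 needed the knockout libraries to pass the naive filter, which favoured a naive rise.

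Cyr61, a secreted matrix protein and a known YAP target, went from 25.2 and 25.9 to 56.8 and 54.0 in the naive state and from 118.4 and 122.6 to 39.9 and 38.3 in the primed state, a difference of -2.69 ± 0.05 (limma adjusted p = 1.54e-08). Ctgf, its close relative, had effects of 0.45 and -1.67, below the limit of the class in the naive state. Both are also matrix genes of fibroblasts, whose marker sum was lower in primed knockout as well, and the part of such cells was not tested. Got1l1, a relative of aspartate aminotransferase, was higher in the naive state, at 10.7 and 11.2 in wild type and 25.4 and 26.8 in knockout against 6.77 and 6.79 and 2.13 and 2.11 in the primed state, a difference of -2.50 ± 0.06 (limma adjusted p = 3.2e-08). Named after their values were seen, Esrp1, an epithelial splicing factor, Crb3, an epithelial polarity protein, and Lama5, a laminin chain, had effects of 0.67 and -0.71, 0.75 and -0.96, and 0.72 and -0.65. Txnip, an inhibitor of thioredoxin, had 1.13 and -0.82. Over the 28 genes the naive effect ran from 0.60 to 1.33 and the primed effect from -2.18 to -0.60.

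**Figure D3:**
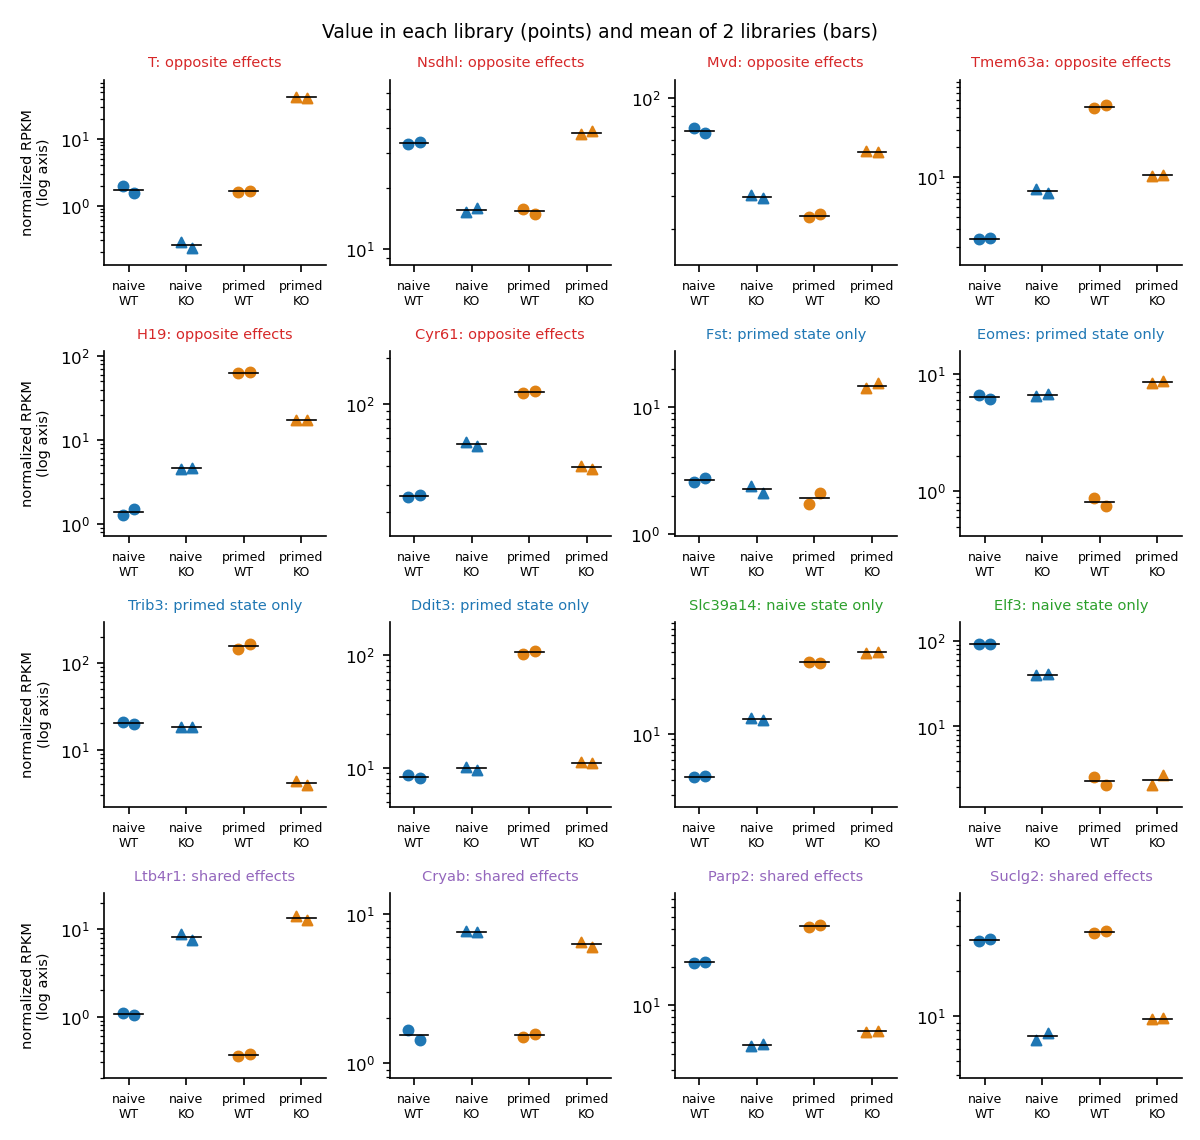
Quantile-normalized RPKM (log y axis) of 16 of the named genes in each of the 8 libraries, by group, with points for libraries, bars for the mean of 2 and the class above each panel. After this scaling the replicates of a group lie close together, as for Tmem63a at 49.6 and 52.4. As deposited some lay further apart, as T in naive wild type at 2.44 and 1.01 RPKM. T in primed knockout, at 42.6 and 41.4, stands far above its 3 other groups.

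An effect in the primed state only was called where the primed effect passed and was at least 2-fold, the 95% interval of the naive effect lay within 0.5 of 0 on the log2 scale, and the difference passed. This held for 409 genes (3.7% of those tested), 160 higher (1.45%) and 249 lower (2.25%). The rule bounds the naive effect but lets a small one pass the test. Among the genes named below it passed for Rerg (-0.38), Pycr1 (-0.36) and Ddit3 (0.22), and not for Fst, Cbr3, Eomes, Trib3 and Chchd10. The signs of the primed effect and of the difference held under every scaling tried for 151 of the 160 and all 249. As deposited, where the primed median is shifted by -0.56, 9 genes met the whole rule in the higher and 429 in the lower direction, among them 9 of the 160 and 90 of the 249. Plekha4 lay just inside the limit of 2-fold and Pdgfrl just outside it, with naive effects of -0.26 and -0.16.

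Eomes and Fst were among the genes higher in the primed state only. Eomes, a T-box factor of mesendoderm, stood at 6.64 and 6.14 in naive wild type, 6.46 and 6.68 in naive knockout, 0.881 and 0.75 in primed wild type and 8.36 and 8.64 in primed knockout. After normalization the primed knockout thus lay above the naive libraries, in which no change was called. As deposited they overlapped, at 6.64 and 6.55 RPKM in primed knockout and 7.39 and 4.71 in naive wild type. The effects were 0.04 ± 0.06 and 2.39 ± 0.06 (difference 2.35, limma adjusted p = 1.65e-07). Fst, which encodes the Activin antagonist follistatin, stood at 2.54 and 2.77, 2.39 and 2.09, 1.72 and 2.1, and 14.1 and 15.4, with the groups ordered as for Eomes and a difference of 2.61 ± 0.12 (limma adjusted p = 5.86e-07). Only 4 of 19 genes of the streak list had enough RNA in both states to be tested. T, Eomes and Wnt8a rose in the primed state, and of these only Eomes is in this class. Wnt8a, a secreted Wnt of the streak, also rose in the naive state, from 0.799 and 0.723 to 2.85 and 2.81, and in the primed state from 0.488 and 0.308 to 21.5 and 21.0. Its normalized wild-type values lay below 1 RPKM, the limit of the filter, in both states, so the filter may have favoured both rises. Snai1, a repressor of epithelial genes, had values of 0.18 and 0.08, neither of which passed (limma adjusted p = 0.0905 and 0.43). Of the other mesoderm markers examined, Mixl1 stood at 0.298 and 0.524 deposited RPKM in primed wild type and at 0.0402 and 0.0728 in primed knockout, and Mesp1 at 0.0854 and 0.0845 and at 0.0204 and 0.0433, so that neither was higher in the knockout.

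Cbr3, a carbonyl reductase, and Rerg, a Ras-like growth inhibitor, completed the 4 named genes of this class. Cbr3 stood at 10.7 and 9.79 in naive wild type, 9.34 and 8.84 in naive knockout, 4.44 and 4.29 in primed wild type and 27.4 and 23.4 in primed knockout, with a difference of 2.45 ± 0.10 (limma adjusted p = 4.13e-07). Rerg stood at 5.86 and 6.15, 4.46 and 4.31, 3.21 and 3.29, and 13.9 and 14.9 in that order, with a difference of 2.23 ± 0.07 (limma adjusted p = 9.66e-08). In both genes primed knockout was the highest group.

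Heat shock proteins, the chaperones of the cytosol and mitochondria, were more often higher than lower in the primed state. Of 19 tested, 12 rose and 2 fell there (background 41.9% and 36.7%), 6 rose and 3 fell in the naive state (background 33.9% and 29.0%), and the difference was higher for 13 and lower for 2 (background 35.2% and 31.0%), with medians of 0.47, 0.04 and 0.35. This rests on the scaling: as deposited 7 rose and 7 fell in the primed state, and the difference was higher for 4 and lower for 5. Hspa8, the constitutive Hsc70, stood at 1008 and 1024 in naive wild type, 990.7 and 1038 in naive knockout, 335.5 and 328.2 in primed wild type and 773.1 and 815.2 in primed knockout, with a primed effect of 1.26 ± 0.03. Hsph1, an exchange factor of Hsp70, rose by 1.06 there beside a naive value of 0.07 (limma adjusted p = 0.0817). Cryab, a small heat shock protein, rose in both states and is described with the shared genes.

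The largest primed fall of all genes tested was that of Trib3, a gene of the integrated stress response. In that response the kinases that phosphorylate eIF2 raise translation of ATF4, and ATF4 with CHOP raises genes of amino acid supply. Trib3 encodes a pseudokinase raised by both factors and stood at 20.7 and 19.6 in naive wild type and at 18.1 and 18.4 in naive knockout. In primed wild type it stood at 146.7 and 163.8, and in primed knockout at 4.29 and 3.89. Primed wild type was far above, and primed knockout far below, the naive libraries. The naive value of -0.13 ± 0.06 did not pass (limma adjusted p = 0.0784), the primed effect was -4.94 ± 0.06, and the difference was -4.81 ± 0.08 (limma adjusted p = 1.54e-08).

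Ddit3, which encodes CHOP, stood at 8.63 and 8.13 in naive wild type, 10.2 and 9.65 in naive knockout, 103.0 and 108.1 in primed wild type and 11.4 and 11.0 in primed knockout. The primed knockout thus came down to near the naive level, with a difference of -3.35 ± 0.06 (limma adjusted p = 1.54e-08). Pycr1, which makes proline in mitochondria, stood at 11.4 and 12.5, 9.26 and 8.89, 39.0 and 41.5, and 3.21 and 2.96 in that order, a difference of -2.97 ± 0.08 (limma adjusted p = 4.33e-08). Chchd10, a protein of the space between the mitochondrial membranes, stood at 140.4 and 161.4, 135.8 and 132.7, 352.0 and 381.4, and 38.3 and 32.4, a difference of -3.18 ± 0.12 (limma adjusted p = 2.22e-07).

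Of 34 genes of the stress response 32 were tested, and all 32 fell in the primed knockout (background 36.7% lower), with a median of -2.39. In the naive state 7 rose and 19 fell (background 33.9% and 29.0%), with a median of -0.23. The difference was lower for all 32 (background 31.0%), with a median of -1.89. As deposited 32 were lower in the primed state and 32 for the difference, and 4 rose and 12 fell in the naive state. The primed sign of Ddit4 and Sesn2 was not the same under every scaling. By class, 19 of the 32 fell in the primed state only, 7 were shared falls, and 1, Atf3, had opposite effects.

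Among the factors of the response, Atf4 itself fell from 346.3 and 338.1 to 137.8 and 136.6 in the primed state and from 233.6 and 240.2 to 197.2 and 192.4 in the naive state, with effects of -1.31 and -0.28. Atf3 rose from 3.28 and 3.62 to 6.49 and 6.37 in the naive state and fell from 24.2 and 23.7 to 9.98 and 10.4 in the primed state. Among the enzymes, Asns, asparagine synthetase, was the most abundant, at 543.3 and 551.1 in naive wild type, 495.8 and 543.3 in naive knockout, 460.2 and 449.5 in primed wild type and 68.2 and 70.4 in primed knockout. Its naive groups touched and did not differ by the test (-0.08, limma adjusted p = 0.139). Psat1 and Psph, of serine synthesis, had primed effects of -2.01 and -2.64 beside -0.37 and -0.27. Among the transporters, Slc7a5, which carries leucine and other large neutral amino acids, had -2.23 beside -0.34. Chac1, which degrades glutathione, fell in both states, from 9.51 and 8.17 to 4.4 and 5.34 in the naive state and from 69.3 and 80.6 to 1.92 and 2.05 in the primed state, a difference of -3.92 ± 0.14 (limma adjusted p = 1.7e-07).

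The core of the composite site of ATF4 and C/EBP factors, TGATGNAA on either strand, was in 9 of 29 promoters of this list (31.0%) against 181 of 8495 promoters in all (2.13%). The list is of genes of the ATF4 response, so this share describes the list and not an effect of the knockout. Trib3 and Ddit3 held no match, and only promoters with a match are shown. By class it was in 12 of 190 promoters of genes lower in the primed state only (6.32%), 3 of 16 of the opposite genes that were lower in the primed state (18.8%), 11 of 190 of the shared falls (5.79%) and 2 of 132 of genes higher in the primed state only (1.52%). Shown are the windows of a shared fall, 2 primed-only falls and Atf3, 250 bases before the start in RefSeq on GRCm38.p6, with the match in capitals on whichever strand it lies.
Chac1, chr2:119350992-119351241, plus strand: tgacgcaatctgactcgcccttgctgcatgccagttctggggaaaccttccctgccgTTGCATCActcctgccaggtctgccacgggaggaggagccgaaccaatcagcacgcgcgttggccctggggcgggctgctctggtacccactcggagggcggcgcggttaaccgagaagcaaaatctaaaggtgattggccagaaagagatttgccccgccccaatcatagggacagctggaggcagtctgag
Asns, chr6:7693210-7693459, minus strand: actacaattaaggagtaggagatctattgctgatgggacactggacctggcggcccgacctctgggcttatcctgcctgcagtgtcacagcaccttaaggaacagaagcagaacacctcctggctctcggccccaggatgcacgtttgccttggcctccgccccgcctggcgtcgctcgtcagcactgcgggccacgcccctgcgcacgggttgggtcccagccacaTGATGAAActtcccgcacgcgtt
Pycr1, chr11:120643749-120643998, minus strand: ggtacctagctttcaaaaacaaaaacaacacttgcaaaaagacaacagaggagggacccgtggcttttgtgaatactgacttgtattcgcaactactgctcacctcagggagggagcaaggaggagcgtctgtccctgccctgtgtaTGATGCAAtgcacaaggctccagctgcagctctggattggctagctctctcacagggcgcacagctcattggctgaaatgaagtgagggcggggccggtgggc
Atf3, chr1:191183334-191183583, minus strand: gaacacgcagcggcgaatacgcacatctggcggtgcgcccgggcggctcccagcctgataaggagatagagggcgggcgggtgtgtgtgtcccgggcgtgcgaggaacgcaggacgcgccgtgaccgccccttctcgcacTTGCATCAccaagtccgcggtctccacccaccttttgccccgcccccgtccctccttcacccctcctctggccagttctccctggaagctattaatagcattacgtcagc

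**Figure D4:**
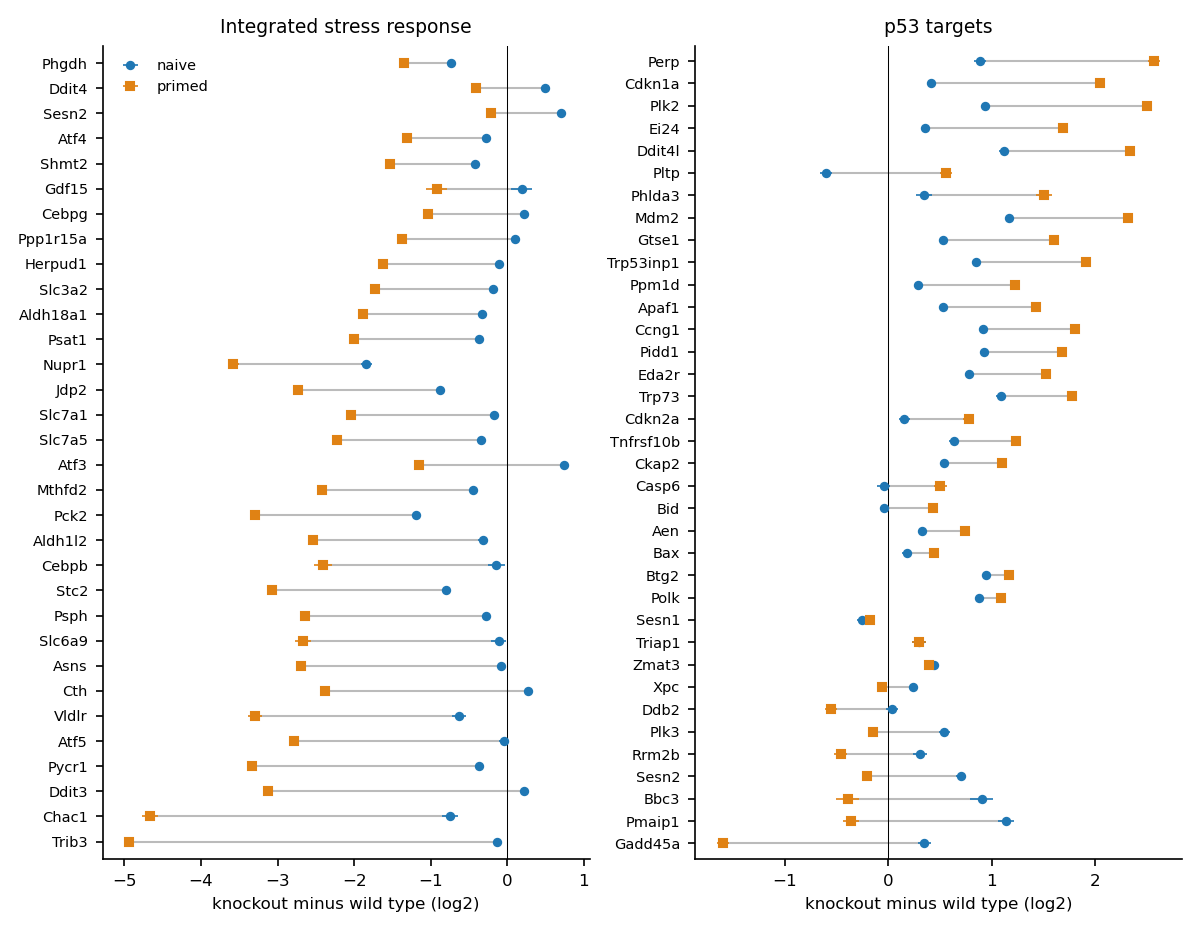
Naive (circles) and primed (squares) effect of each gene tested of the integrated stress response (left) and of 2 lists of p53 targets (right), as log2 knockout minus wild type with SE bars, ordered by the difference. On the left all primed effects lie below 0, down to -4.94 for Trib3; on the right most genes lie above 0 in both states, and Gadd45a, Pmaip1 and Bbc3 at the foot have naive effects above and primed effects below 0.

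Genes of amino acid use and sugar use also fell in the primed state more often than they rose. Of 20 cytosolic tRNA synthetase genes, which charge tRNAs with amino acids, 15 fell and 5 rose in the primed state (background 36.7% and 41.9%), 10 fell and 7 rose in the naive state, and the difference was lower for 13 and higher for 3 (background 31.0% and 35.2%), with medians of -0.84, -0.05 and -0.83. As deposited the difference was lower for 17 and higher for 0. Lars and Yars fell in the primed state only, with effects of -1.16 and -1.29 beside -0.25 and -0.32 in the naive state, whereas Rars rose by 0.46 there. Of 24 genes of glycolysis, 18 fell and 6 rose in the primed state and 13 fell and 6 rose in the naive state (background 29.0% and 33.9%), and the difference was lower for 16 and higher for 3, with medians of -0.68, -0.17 and -0.44. As deposited it was lower for 18 and higher for 1, and with median centring it was lower for 9.

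Slc2a3, a glucose transporter, stood at 638 and 638 in naive wild type, 738 and 763.2 in naive knockout, 763.2 and 763.2 in primed wild type and 199 and 202.7 in primed knockout (equal values arise because quantile normalization gives a rank the same value in every library), so that its naive effect of 0.23 and its primed effect of -1.92 had opposite signs. Pfkp, a phosphofructokinase, had effects of -0.28 and -1.98, and Pgk1, a kinase of the lower part of the pathway, -0.23 and -1.48. Slc16a3, a lactate exporter, fell in both states, with -1.44 and -2.58. Ldhb, the lactate dehydrogenase of oxidative tissues, went the other way in the primed state, from 65.3 and 63.6 to 134.6 and 139.1, with effects of -0.16 and 1.07, while Ldha fell in both, with -0.72 and -1.23.

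Pluripotency factors are given by gene, since their primed counts were near the background. Of 16 tested (20 in the list), 13 rose and 1 fell in the naive state (background 33.9% and 29.0%). In the primed state 7 rose and 6 fell (background 41.9% and 36.7%). The difference was higher for 4 and lower for 10 (background 35.2% and 31.0%), and the medians were 0.24, 0.03 and -0.48. As deposited 3 rose and 10 fell in the primed state. Pou5f1, which encodes Oct4, had effects of 0.19 and 0.55 and Sox2 of 0.31 and 0.78, positive in both states and under every scaling. Nanog stood at 500.4 and 500.4 in naive wild type, 581.2 and 617.1 in naive knockout, 108.4 and 107.8 in primed wild type and 43.8 and 43.9 in primed knockout, with a primed effect of -1.28 ± 0.03 and a difference of -1.54 ± 0.04 (limma adjusted p = 4.94e-08). The sign of its naive effect, 0.26, was not the same under every scaling. Gdf3, a TGF-beta ligand, stood at 57.7 and 57.6, 65.3 and 65.0, 3.18 and 3.9, and 0.377 and 0.341 over the groups as listed for Nanog, with a primed effect of -1.74, and Fgf4, the FGF ligand of the epiblast, had effects of 0.06 and -1.49. Gdf3 lay below 1 normalized RPKM in primed knockout, so the filter may have favoured its primed fall. Tcf15, a factor of the exit from the naive state, had 0.07 and -1.48.

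Apobec1, Gdf3, Nanog and Slc2a3, a run chosen after their values were seen, are neighbours in RefSeq's gene order among the genes tested, and all 4 were lower in the primed state only. Of the 239 genes lower in the primed state only that could be placed in that order, 16 had such a neighbour of the same class and direction, as did 22 of 259 shared falls, 14 of 188 shared rises and 8 of 155 genes higher in the primed state only. For opposite genes it was 2 of 25 higher and 0 of 27 lower in the primed state, and for naive-only genes 0 of 6 rises and 0 of 10 falls. Both genes of a pair are counted. The share to be expected from class size was not computed, so the counts do not show clustering. Of the 15 tested markers of the primed state, 5 had a higher and 5 a lower difference, near the background of 35.2% and 31.0%. As deposited it was higher for 1 and lower for 6. Pim2, a survival kinase, was higher in the primed state only, from 76.7 and 82.0 to 264.2 and 258.3, with an effect of 1.71 beside 0.31. Nodal, the ligand that keeps primed cells pluripotent, had effects of 0.51 and -0.46. Enpp3, a surface nucleotidase, rose in the naive state from 0.966 and 1.02 to 2.52 and 2.58, beside 52.5 and 52.9 and then 46.4 and 47.0 in the primed state. Its naive wild-type values lay near 1 RPKM, the limit of the filter.

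An effect in the naive state only, by the mirrored rule, was called for 17 genes (0.154%), 6 higher (0.0543%) and 11 lower (0.0996%). The number depended on single libraries: it was 11 without primed wild-type replicate 1 and 11 without primed wild-type replicate 2. As deposited 6 genes met the rule in the higher and 0 in the lower direction, among them 1 of the 6 and 0 of the 11. The signs of the naive effect and of the difference held under every scaling for all 17. Lpar6 lay just inside the limit of 2-fold, with effects of 1.01 and 0.24, and Ppp1r3b just outside, with a primed effect of 0.32.

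The 6 genes that rose were low in naive wild type, with a median of 2.5 normalized RPKM against 26.2 in primed wild type. Slc39a14, a zinc and manganese transporter, stood at 4.22 and 4.3 in naive wild type, 13.7 and 13.2 in naive knockout, 41.3 and 40.8 in primed wild type and 49.4 and 50.3 in primed knockout, a difference of -1.18 ± 0.05 (limma adjusted p = 2.7e-07). Tagln, an actin-binding protein of smooth muscle, stood at 0.854 and 0.885, 3.72 and 4.03, 65.0 and 61.8, and 71.0 and 74.0 in that order, a difference of -1.19 ± 0.06 (limma adjusted p = 1.44e-06). With 1.18 and 0.528 deposited RPKM in naive wild type, it needed the knockout libraries to pass the naive filter, which favoured a rise. Ap1m2, an epithelial clathrin adaptor, stood at 3.8 and 5.32, 13.4 and 12.7, 28.2 and 26.3, and 26.3 and 28.0, a difference of -1.35 ± 0.15 (limma adjusted p = 9.14e-05). Naive knockout lay between naive and primed wild type in these 3 genes. Cyp1a1, a target of the aryl hydrocarbon receptor, was low in both states, at 1.75 and 1.54, 5.28 and 5.83, 2.21 and 1.99, and 1.4 and 1.57, with effects of 1.31 and -0.32.

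Of the 11 genes that fell, Elf3, an epithelial ETS factor, stood at 90.8 and 90.6 in naive wild type and 39.7 and 40.6 in naive knockout, and at 2.56 and 2.1 and 2.07 and 2.73 in the primed state, a difference of 1.18 ± 0.13 (limma adjusted p = 7.56e-05). Its primed groups overlapped. Emp1, an epithelial membrane protein, stood at 27.3 and 27.0, 11.9 and 11.9, 5.11 and 4.82, and 4.94 and 4.99, and Plekhb2, a membrane protein of recycling endosomes, at 15.6 and 14.6, 5.48 and 5.4, 4.07 and 3.97, and 3.17 and 3.15, with differences of 1.12 and 1.05 (limma adjusted p = 8.34e-07 and 3.5e-06). Fads2, a desaturase of polyunsaturated fatty acids, had the largest difference, 1.33 ± 0.05 (limma adjusted p = 1.46e-07), at 89.2 and 88.8, 44.6 and 42.4, 97.5 and 101.4, and 124.2 and 123.5. Its primed effect of 0.31 was small but also passed. So did the small primed effects of Plekhb2 (-0.27), Slc39a14 (0.27), Tagln (0.19) and Cyp1a1 (-0.32). Those of Elf3, Emp1 and Ap1m2 did not pass. As deposited they did, at -0.71, -0.76 and -0.53 (limma adjusted p = 0.000531, 0.00125 and 0.00841). Plekhb2 then had a primed effect of -1.05 beside a naive effect of -1.28. As deposited the differences of Elf3, Emp1 and Plekhb2, at 0.42, 0.34 and 0.23, did not pass.

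Shared effects, with both effects called in the same direction and each at least 1.5-fold, were found for 467 genes (4.23%), 195 higher (1.77%) and 272 lower (2.46%). The sizes often differed. The difference passed for 319 of the 467, in 269 of which the primed effect was the larger and in 50 the naive one, and its 95% interval lay within 0.5 of 0 for 211. The median effects of the 195 rises were 0.82 in the naive and 1.21 in the primed state, and those of the 272 falls were -0.77 and -1.04. Both effects were 2-fold or more in 33 rises and 37 falls. All signs held under every scaling for 176 of the 195 and for all 272, but as deposited 98 rises and 267 falls met the rule, among them 91 of the 195 and 175 of the 272. Nsrp1 lay just inside the limit with effects of -0.71 and -0.59, and Cd55 just outside with 0.58 and 0.79.

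The leading shared rise was that of Ltb4r1, a leukotriene B4 receptor, at 1.1 and 1.03 in naive wild type, 8.72 and 7.56 in naive knockout, 0.355 and 0.377 in primed wild type and 14.2 and 12.7 in primed knockout, with effects of 2.14 ± 0.08 and 3.40 ± 0.08 (limma adjusted p = 3.38e-07 and 4.97e-09). Its neighbour Ltb4r2 had 1.71 and 2.81, and since the counting of reads shared by neighbours is not stated, the values of both genes are uncertain. Both passed the primed filter through knockout alone, with at most 0.528 and 0.369 deposited RPKM in primed wild type. Their primed direction was thus favoured by the filter. In naive wild type Ltb4r1 had 1.5 and 0.619 and Ltb4r2 1 and 0.546 deposited RPKM. Both thus needed the knockout libraries to pass the naive filter as well. Nkx2-9, a homeobox gene, stood at 2.79 and 2.43, 10.9 and 7.95, 0.679 and 0.637, and 25.2 and 20.4, with effects of 1.52 and 3.84 and a difference of 2.32 ± 0.19 (limma adjusted p = 1.66e-05). With 0.746 and 1.11 deposited RPKM in primed wild type, it needed the knockout libraries to pass the primed filter, which favoured a primed rise. Cryab stood at 1.66 and 1.42, 7.64 and 7.61, 1.5 and 1.57, and 6.5 and 6.01, with nearly the same normalized levels in both states and a difference of -0.25 ± 0.09 (limma adjusted p = 0.041). As deposited its knockout values were 7.83 and 7.36 RPKM in the naive and 5.14 and 4.5 in the primed state. Its primed effect was then 0.85 and the difference -0.95 (limma adjusted p = 0.0411). With 2.13 and 0.933 deposited RPKM in naive wild type, Cryab needed the knockout libraries to pass the naive filter, which favoured a rise.

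The leading shared falls were 2-fold or more in both states. Parp2, a DNA repair polymerase of ADP-ribose chains, fell from 21.6 and 22.1 to 4.63 and 4.85 in the naive state and from 41.6 and 43.2 to 6.07 and 6.19 in the primed state, with effects of -1.99 ± 0.04 and -2.61 ± 0.04 (limma adjusted p = 5.3e-08 and 7.89e-10). Suclg2, a subunit of succinyl-CoA synthetase, fell from 31.7 and 32.5 to 6.85 and 7.67 and from 35.7 and 36.7 to 9.51 and 9.63, with a primed effect of -1.81. The sign of its difference, 0.19, was not the same under every scaling. Mettl22, a lysine methyltransferase, went from 7.2 and 7.07 to 1.72 and 1.01 and from 19.3 and 20.8 to 2.14 and 2.41, with effects of -1.80 and -2.68. Nupr1, a stress-induced chromatin protein, fell from 35.7 and 34.5 to 8.29 and 9.96 and from 20.1 and 20.7 to 0.827 and 0.762, with effects of -1.84 and -3.58 and a difference of -1.74 ± 0.10 (limma adjusted p = 2.2e-06). It passed the primed filter through wild type alone, with 0.431 and 0.372 deposited RPKM in primed knockout, so the filter favoured a primed fall.

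Targets of p53, the transcription factor of DNA damage, mostly rose in both states. Of 25 targets of arrest, repair and feedback, 22 rose and 2 fell in the naive state (background 33.9% and 29.0%). In the primed state 18 rose and 6 fell (background 41.9% and 36.7%), and the medians were 0.44 and 1.10. The difference was higher for 17 and lower for 6 (background 35.2% and 31.0%). Of the 25, 8 met the rule of shared rises. As deposited 15 rose and 7 fell in the primed state, and the difference was higher for 9 and lower for 8. Mdm2, the ligase that degrades p53, went from 66.0 and 69.9 to 151.8 and 156.6 and from 46.3 and 42.9 to 227.9 and 224.3, with effects of 1.17 and 2.32. Cdkn1a, which encodes the cell cycle inhibitor p21, went from 154.2 and 154.9 to 213.9 and 199.7 and from 49.2 and 47.3 to 207.4 and 197.2, with 0.42 and 2.05. Knockout reached nearly the same normalized Cdkn1a level in both states, from wild-type levels that differed. Btg2 and Polk, an inhibitor of growth and a repair polymerase, rose by similar amounts, 0.94 and 1.17 and 0.88 and 1.09.

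Cell death targets of p53 were divided. Of 11 tested, 9 rose and 0 fell in the naive state and, beside the same background, 9 rose and 2 fell in the primed state, with medians of 0.64 and 0.50, and the difference was higher for 8 and lower for 2, but as deposited for 1 and 3. The 2 that fell were Pmaip1 and Bbc3, which encode the death proteins Noxa and Puma. Pmaip1 rose from 5.68 and 6.06 to 13.7 and 14.5 in the naive state and fell from 7.47 and 8.55 to 5.53 and 6.52 in the primed state, and Bbc3 rose from 10.4 and 12.1 to 22.3 and 21.3 and fell from 34.7 and 38.7 to 31.6 and 24.2. Their differences were -1.50 ± 0.11 and -1.30 ± 0.16 (limma adjusted p = 9.43e-06 and 0.000156). Gadd45a, a growth arrest gene that ATF4 also raises, had effects of 0.35 and -1.60. Perp, a membrane protein of death and adhesion, rose in both states, by 0.89 and 2.57.

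Growth and replication genes differed between the states by small amounts. Of 25 genes of ribosome biogenesis, 23 rose and 1 fell in the primed state (background 41.9% and 36.7%) and 13 rose and 3 fell in the naive state. The difference was higher for 19 and lower for 1 (background 35.2% and 31.0%), and the medians were 0.39, 0.07 and 0.31. This rests on the scaling: as deposited 4 rose and 5 fell in the primed state, with a median of 0.01, and the difference was higher for 2 and lower for 4. Of 31 genes of DNA replication, 20 fell and 2 rose in the naive state (background 29.0% and 33.9%), 17 rose and 10 fell in the primed state, and the difference was higher for 20 and lower for 4, with medians of -0.21, 0.12 and 0.23, but as deposited 0 rose and 20 fell in the primed state and the difference was higher for 1 and lower for 10, the reverse direction. Mcm2, of the replicative helicase, and Gins2, of its GINS partner, fell in both states, with effects of -1.07 and -0.73 and of -0.91 and -1.15.

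Of 23 matrix and adhesion genes tested, 18 rose and 3 fell in the naive state (background 33.9% and 29.0%) and 14 rose and 7 fell in the primed state (background 41.9% and 36.7%), and the difference was higher for 6 and lower for 10 (background 35.2% and 31.0%), with medians of 0.37, 0.19 and -0.10. As deposited 6 rose and 8 fell in the primed state and the difference was higher for 2 and lower for 16. Vim and Cdh2, mesenchymal genes, rose in the primed state only, Vim from 221.1 and 227.9 to 659.5 and 638.0 with effects of -0.11 and 1.53, and Cdh2 with -0.19 and 1.43. Anxa2, a membrane-binding annexin, rose in both, by 1.59 and 1.02. The summed level of the fibroblast markers given above was lower in the primed knockout, where Vim and Cdh2 rose, and the part of such cells in the primed values was not tested.

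**Figure D5:**
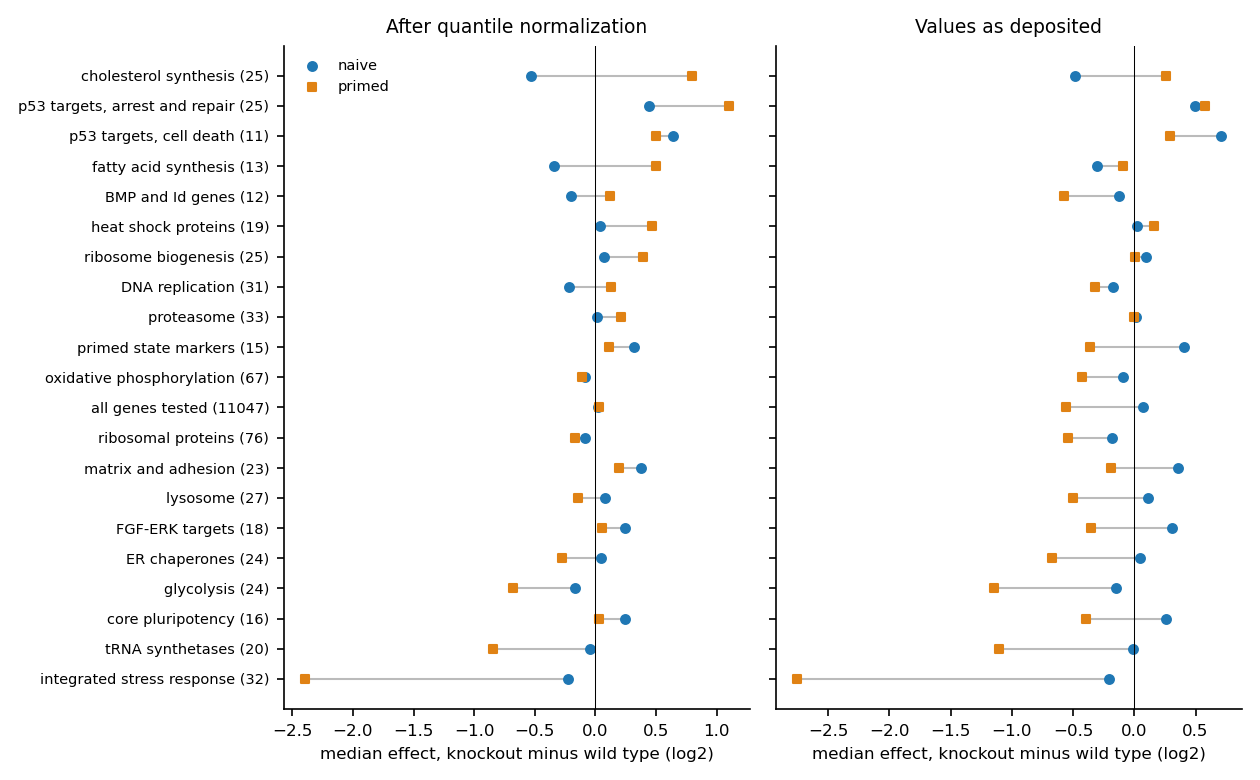
Median effect (log2 knockout minus wild type) of 20 gene lists and of all genes tested in the naive (circles) and primed (squares) state, after quantile normalization (left) and as deposited (right), with the number of genes tested in brackets. Cholesterol genes have medians of -0.53 and 0.80 on the left and of -0.48 and 0.26 on the right, and stress response genes lie lowest in both panels, while the median of all genes in the primed state moves from 0.03 to -0.56.

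The classes also differed in their level in wild type. Genes that rose in the naive and fell in the primed knockout had a median of 3.72 normalized RPKM in naive and 11.7 in primed wild type, and those with the reverse pattern 9.03 and 3.37, beside 14.0 and 13.9 over all genes tested. Genes lower in the primed state only had 11.8 and 21.4, and genes higher in the primed state only 11.4 and 6.24. For the 3 sets that include a fall, wild type had the higher median in the state of the fall. Since the effects are taken from the same wild-type libraries as these levels, the levels describe the classes and give no independent support.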

How the data were processed

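RNA was measured in 8 libraries, 2 for each of 4 groups. The authors deposited 1 RPKM value per gene and library. Per the submitters' processing notes, cutadapt 1.9, STAR 2.5.2b, featureCounts 1.5.1 and affy were used with the genome build mm9; strand use and the scaling of the values are not given in the sources used here. Per the labels' protocols, an ERCC spike-in was added to the lysate and ribosomal RNA was depleted with Ribo-Zero. No ERCC row is in the files used here. Genes with equal values in a library had equal values in all libraries of its state, and in the other state in 2004 of 3872 cases for naive and 1640 of 4392 for primed ties. Since RPKM holds no counts, depth and counting error are unknown, and a fold change on log2(RPKM + 1) understates the change of low genes.

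Genes with at least 1 RPKM in 2 libraries of each state were log2-transformed with a pseudocount of 1, quantile-normalized over the 8 libraries and fitted with limma 3.58.1 in R 4.3.3: 4 group means, an intensity trend, 3 contrasts (naive, primed, their difference) and Benjamini-Hochberg adjustment over all 11047 genes, with a threshold of 0.05. Other steps used Python 3.11.15, pandas 2.3.3 and matplotlib 3.10.9. The fit was tested on simulated data. Values printed per library are quantile-normalized RPKM unless called deposited.

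Members, class rules and the 48 gene lists were chosen with earlier results of these data known. Up to 4 genes per class and direction were named by size, among those with non-overlapping libraries, a group mean of at least 5 RPKM and the same signs under every scaling; list members were named by size of the difference or for their role. Same-numbered libraries did not deviate together after normalization, and the numbers were not used as a block in the main fit. Alternatives were other scalings, pseudocount, filters, variance models, thresholds, the replicate block and leaving out each library. Some genes are not reported here by name; they remain in the fit and in the counts of lists and classes.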

Additional observations from a re-analysis of the deposited data

Results flagged for a closer look

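The results here were singled out because the test of the difference itself, primed minus naive, passed (limma, adjusted p under 0.05), which it did for 7318 of the 11047 genes. Differences below are on the log2 scale.

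Among genes with opposite effects the differences were 5.15 for T, 2.37 for Galnt12, 2.32 for Nsdhl and 2.23 for Mvd, and -3.46 for Tmem63a, -3.05 for H19, -2.69 for Cyr61 and -2.50 for Got1l1. Among genes with an effect in the primed state only they were 2.61 for Fst, 2.45 for Cbr3, 2.35 for Eomes and 2.23 for Rerg, and -4.81 for Trib3, -3.35 for Ddit3, -3.18 for Chchd10 and -2.97 for Pycr1.

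Among genes with an effect in the naive state only the differences were -1.63 for Cyp1a1, -1.35 for Ap1m2, -1.19 for Tagln and -1.18 for Slc39a14, and 1.33 for Fads2, 1.18 for Elf3, 1.12 for Emp1 and 1.05 for Plekhb2. Shared rises differed by 1.26 for Ltb4r1, 1.09 for Ltb4r2, 2.32 for Nkx2-9 and -0.25 for Cryab, and shared falls by -0.61 for Parp2, -1.74 for Nupr1, 0.19 for Suclg2 and -0.88 for Mettl22. For a shared fall, a negative difference is a deeper primed fall.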

How the results depend on the processing

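Of 748 values of named genes that the alternatives gave, 745 kept their direction and their side of the threshold, and 0 reversed. For shared genes the naive and primed effects were counted, and their differences were not. These genes were named only if the signs of the values counted were equal as deposited, with median centring and with loess. Reversals under those scalings were thus excluded in advance, and the count is no measure of how stable other genes are. The filter at 5 RPKM gave no value for 10 genes, and leaving out a library dropped T, Ltb4r1, Ltb4r2 and Nupr1 below the filter, so these were refitted with the genes kept, an alternative chosen after seeing the data and counted here. The differences of Elf3, Emp1 and Plekhb2 as deposited were 0.42, 0.34 and 0.23 and did not pass. Those of the shared genes Ltb4r1, Ltb4r2 and Suclg2, at 0.837, 0.745 and -0.347, did not pass as deposited either. For Suclg2 the sign of the difference also changed. Of 369 counts, 353 stayed within 1.5 times. As deposited, genes called in the naive state numbered 1425, naive-only genes 6, naive falls of cholesterol genes 15 and primed rises of ribosome biogenesis genes 4. With median centring 4089 genes were called in the naive state, and the difference was lower for 9 glycolysis genes. With a pseudocount of 0.1 RPKM there were 97 opposite and 32 naive-only genes, and with no filter 65 naive-only genes. A filter at 5 RPKM, which tests fewer genes, left 26 opposite and 246 primed-only genes. Asking for 2-fold in both states left 10 opposite and 70 shared genes, and an interval within 1 gave 43 naive-only genes. The causes were not tested. Leaving out each library gave 6667 to 6999 genes for the difference, 48 to 59 opposite, 361 to 431 primed-only, 11 to 22 naive-only and 431 to 470 shared genes; 11 was reached without either primed wild-type library.

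Same-numbered libraries correlated between -0.159 and 0.0622 in their deviations after quantile normalization, so no pairing by number was seen in these values. This cannot show whether they were handled together, since the normalization removes a shift shared by a whole library. With the replicate block the difference was called for 7214 genes, the naive effect for 6832 and the primed effect for 8627, with 54 opposite, 406 primed-only, 17 naive-only and 467 shared genes. With the primed knockout numbers crossed, an alternative chosen after seeing the data, these 3 calls numbered 7270, 6906 and 8661. Depth is unknown, so no limit from depth could be set.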

Other observations

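Imprinted genes, of which the maternal or paternal copy is silent, had individual patterns. Of 20 tested, the difference was higher for 5 and lower for 9 (35.2% and 31.0% of all genes), or for 2 and 13 as deposited, and the list as a whole is not set apart by these counts. Grb10, an inhibitor of growth factor receptors, fell by 0.53 in the naive and by 3.23 in the primed state on the log2 scale, a difference of -2.69 (limma adjusted p = 3.2e-08). Peg10, a gene derived from a retrotransposon, rose by 0.36 and 1.81, while Peg3, a zinc finger gene, had -0.36 and -1.29. Mest, a hydrolase gene, had 0.38 and -0.46. Rian and Mirg, noncoding RNAs of the same cluster, fell by like amounts, -0.62 and -0.76 and -0.64 and -0.61, and Slc38a4, an amino acid transporter, fell by 0.95 in the naive state with a primed value of 0.04 that did not pass (limma adjusted p = 0.292).

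Antigen presentation genes were also divided. The class I genes H2-K1, H2-D1 and H2-Q4 fell in both states, with naive effects of -1.18, -0.64 and -0.66 and primed effects of -2.29, -1.41 and -1.81, and reads of these near-identical genes may be split between them. Tap1, the peptide transporter, rose by 0.56 and 2.04, and B2m, the light chain, did not pass in either state (limma adjusted p = 0.156 and 0.617). In the lysosome list Hexa, a hexosaminidase, fell in the primed state only, with effects of -0.12 and -1.95, and Gaa, the acid glucosidase, had 0.79 and -0.23. Among genes of the endoplasmic reticulum, Ero1l, an oxidase of disulfide formation, and Xbp1, a factor of the unfolded protein response, fell in the primed state only, with primed effects of -1.54 and -1.12. The chaperone Hspa5 did not pass in either state (limma adjusted p = 0.379 and 0.156).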
